A study of Mus musculus with 7 samples.

Results

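Transcript levels of 7 genes tied to the daily cycle of body temperature were followed in mouse dorsal root ganglia after nerve injury. They were the cold-inducible RNA-binding proteins Cirbp and Rbm3, the CDC-like kinases Clk1, Clk2, Clk3 and Clk4, and the heat shock transcription factor Hsf1. The genes were chosen by symbol, and each had 1 row among the 54309 genes of the table. RNA sequencing covered 7 samples of lumbar ganglia (L4-6) from male C57bl/6 mice aged 6 to 8 weeks. Their sciatic nerve had been injured at Zeitgeber time (ZT, hours from lights on) 20, for 4 samples, or at ZT8, for 3 samples, and the ganglia were taken 72 h later, so at the same clock time as the injury. All samples were injured, and no uninjured group is among them. The ganglia had been dissociated with enzymes and spun through an albumin gradient to enrich neurons. Levels are given in TPM (transcript abundance scaled to a common total per sample), which accounts for transcript length and can therefore be set side by side between genes.

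Mice are active in the dark, so ZT20 falls in the active phase, when core temperature is high, and ZT8 in the rest phase, when it is lower. CIRBP and RBM3 are small proteins with an RNA recognition motif and a glycine-rich tail whose messages rise when cells are mildly cooled. They bind other messages, and RBM3 is known for protecting synapses in neurons. The CLK kinases sit in the nucleus and phosphorylate SR proteins, the splicing factors rich in serine and arginine. The activity of CLK1 and CLK4 is itself sensitive to small changes of temperature, and CLK messages are often held in the nucleus with introns retained. HSF1 is the master activator of chaperone genes after heat and other protein stress, and it is set mainly by its release from chaperones rather than by the level of its message.

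Promoter windows were read from the RefSeq table on GRCm38.p6, from 250 bases before to 50 bases after each annotated start. The table held 5 windows for 4 of the 7 genes, Cirbp (2 windows), Clk2, Clk3 and Clk4. A Cirbp window and the Clk4 window are shown because both genes were lower at ZT20 and these windows held a motif match, whereas the other Cirbp window, at chr10:80167921-80168220, held none. They lie on the plus strand at chr10:80167589-80167888 and chr11:51262864-51263163 and are written 5′ to 3′. Capitals mark matches to 1 of 5 searched motifs, described after the sequences.
Cirbp: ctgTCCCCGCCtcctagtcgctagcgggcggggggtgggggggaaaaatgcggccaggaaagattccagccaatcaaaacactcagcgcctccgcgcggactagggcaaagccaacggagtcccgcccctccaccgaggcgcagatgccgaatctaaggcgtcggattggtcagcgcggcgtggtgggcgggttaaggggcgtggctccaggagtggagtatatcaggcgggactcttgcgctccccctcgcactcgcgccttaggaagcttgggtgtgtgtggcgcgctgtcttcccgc
Clk4: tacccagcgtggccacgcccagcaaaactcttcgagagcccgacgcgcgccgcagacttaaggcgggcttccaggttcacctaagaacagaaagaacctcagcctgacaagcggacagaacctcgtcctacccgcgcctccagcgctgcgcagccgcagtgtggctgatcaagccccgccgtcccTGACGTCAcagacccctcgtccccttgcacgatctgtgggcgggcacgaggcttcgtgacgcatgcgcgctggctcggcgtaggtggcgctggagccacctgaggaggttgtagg

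The capitals in the Cirbp window shown are TCCCCGCC, the letters of the mild cold-responsive element known from this gene, with the first base at position -247 from the start. These letters, on either strand, were in 5.38% of 32851 promoter windows of the same length. The capitals in the Clk4 window are the cyclic AMP response element TGACGTCA at position -65, a motif found in 1.79% of the windows and added to the search after the Clk4 sequence had been seen. The E-box CACGTG, which clock proteins bind, was found once among the 4 genes, at position -159 of the Clk2 window, and in 7.15% of all windows. The D-box TTATGTAA (0.938% of all windows) and the heat shock element core GAANNTTC (7.86%) were not found in the windows of these 4 genes. No motif match overlapped another. A match describes letters in the window and was not tied to any measurement here.

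Several properties of the libraries touch the results that follow. The ZT8 libraries listed fewer genes above 0 TPM (18297 to 22973) than the ZT20 libraries (24192 to 25238), and ZT8 replicate 2 listed the fewest. Although all samples are labelled male, the summed TPM of 4 Y-linked genes was 0.0162 and 0.00868 in ZT20 replicates 3 and 4, against 33.1 to 84.6 in the others. The inactive X transcript Xist was at 2.21 and 2.30 TPM in those replicates, at 1.08 TPM in ZT20 replicate 2 and at most 0.00466 TPM elsewhere. All 7 listed neuronal markers were above 0 TPM in every library. Their sum was 15530 to 19510 TPM at ZT20 and 12500 to 18350 TPM at ZT8, while the sum of 5 satellite glia markers was 6958 to 8431 TPM at ZT20 and 11760 to 14450 TPM at ZT8. In these bulk samples, fewer cells of a type and less RNA per cell cannot be told apart. Library identifiers were numbers at ZT20 and letters at ZT8, so a library batch and the injury time cannot be told apart. Whether the replicates were separate animals or pools is not stated, so p-values measure the spread between these samples.

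Differences are ZT20 minus ZT8 on the log2(TPM + 1) scale, tested with limma over the 14800 genes whose mean reached 1 TPM, and a gene is called at an adjusted p-value under 0.05. All 7 genes were tested. Of all tested genes 16.4% were called, 12.8% higher and 3.61% lower at ZT20, and the median difference of all genes was 0.23, so TPM values at ZT20 were on the whole shifted upward. Of the 7 genes, 3 were called, all lower at ZT20: Cirbp, Rbm3 and Clk4. The differences of Clk1, Clk2, Clk3 and Hsf1 did not pass.

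**Figure D1:**
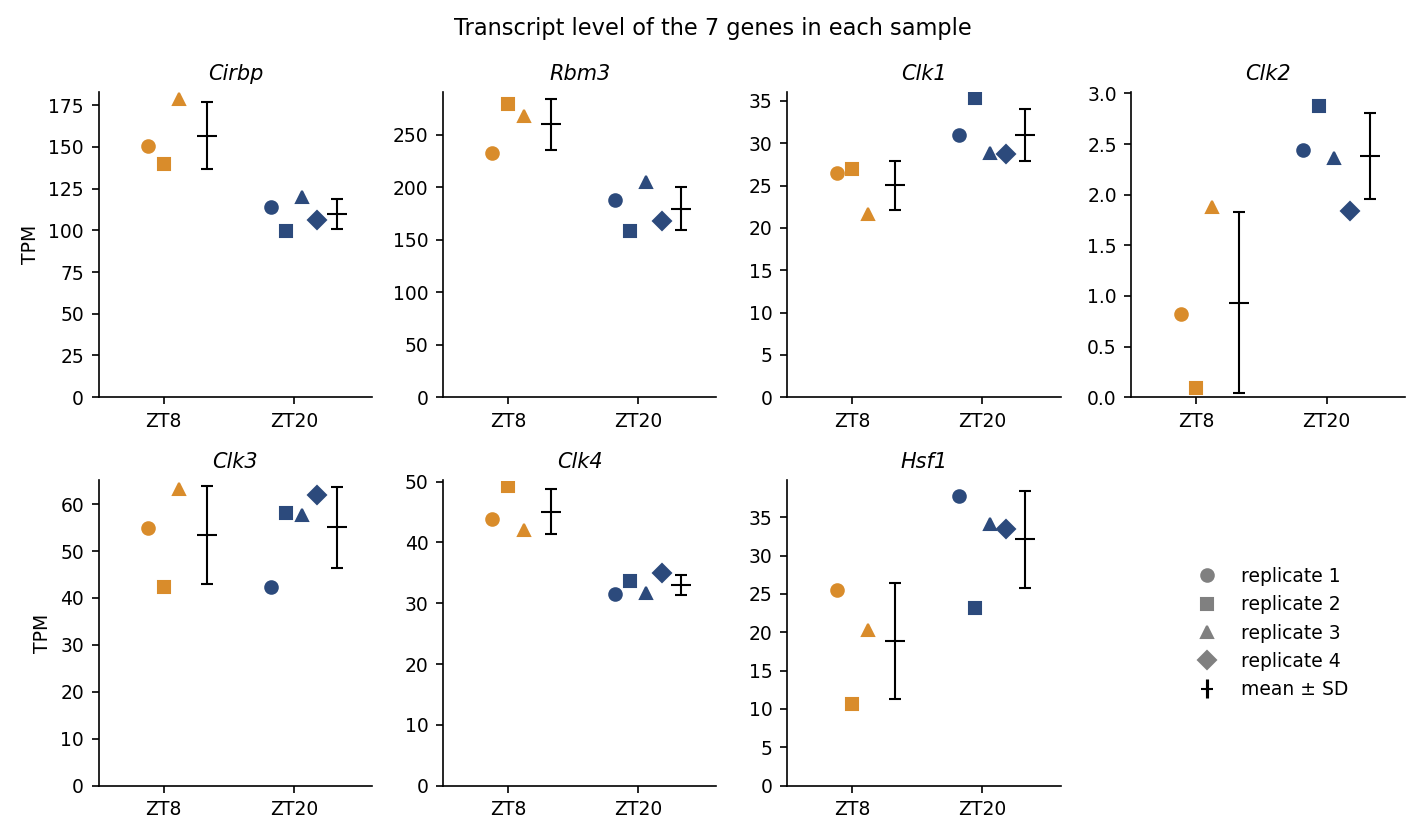
TPM (vertical axes, from 0) of each gene in every sample at ZT8 (orange) and ZT20 (blue), with symbols for the replicate numbers and the mean ± SD in black. Cirbp, Rbm3 and Clk4 lay lower in all 4 ZT20 samples than in any ZT8 sample, Clk1 lay higher, and the groups overlapped for Clk2, Clk3 and Hsf1.

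Cirbp and Rbm3, the messages that rise with cooling, were both lower at ZT20, the active phase. Whether body temperature or the handling of the dissociated ganglia bears on this was not tested. The Cirbp level was 114, 99.3, 120.2 and 106 TPM across ZT20 replicates 1 to 4 and 151, 140.1 and 179 TPM in ZT8 replicates 1 to 3. The groups did not overlap, and ZT8 replicate 3 stood highest. The ZT20 mean of 110 ± 9.03 TPM (SD, n = 4) stood against 157 ± 20.1 TPM (SD, n = 3), 1.42-fold lower at ZT20, with a log2 difference of -0.50 (95% interval -0.79 to -0.21, limma adjusted p = 0.0326). Of all tested genes, 8.72% had a lower difference.

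Rbm3 was at 187, 158, 205 and 168 TPM in the ZT20 samples and at 233, 279 and 268 TPM in the ZT8 samples. Again every ZT20 sample was below every ZT8 sample. The ZT20 mean of 179 ± 20.7 TPM (SD, n = 4) stood against 260 ± 24.4 TPM (SD, n = 3), 1.45-fold lower at ZT20, with a log2 difference of -0.53 (95% interval -0.83 to -0.24, limma adjusted p = 0.0270). Rbm3 overlaps the antisense gene Rbm3os in GENCODE M21, which was at 1.17 to 2.74 TPM in the 7 samples, and the table also holds the pseudogene Rbm3-ps, so how reads were split among them is uncertain. Ranges that did not overlap were found for 33.2% of all tested genes, 8.72% with ZT20 lower.

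The calls for both genes were close to the threshold, and with no filter on low values their adjusted p-values were 0.0636 and 0.0599. Leaving out any single library other than ZT8 replicate 2 raised the adjusted p-value of Cirbp above the threshold, to between 0.0564 and 0.0932, with differences of -0.55 to -0.40. For Rbm3 the same happened with every library but ZT8 replicates 1 and 2 (adjusted p 0.0532 to 0.0841, differences of -0.60 to -0.48). Without ZT20 replicates 3 and 4, the libraries lacking Y-linked transcripts, the differences were -0.55 for Cirbp and -0.59 for Rbm3 with adjusted p-values of 0.222 and 0.191, and in that fit 0 genes of the whole table were called by limma while 2425 had an unadjusted p-value under 0.05.

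Within the ZT20 group Cirbp and Rbm3 put the libraries in the same order, with replicate 3 highest, then replicates 1, 4 and 2. Within ZT8 they did not: replicate 3 was highest for Cirbp and replicate 2 for Rbm3. Cirbp stood at 0.608, 0.629, 0.587 and 0.634 times the TPM of Rbm3 in the ZT20 samples and at 0.648, 0.501 and 0.668 times in the ZT8 samples. The log2 ratio, taken within each sample and so barely touched by scaling between samples, was -0.70 ± 0.0502 (SD, n = 4) in the ZT20 samples, against -0.73 ± 0.226 (SD, n = 3) in the ZT8 samples. It differed by 0.033 between the groups (two-sided exact permutation test, p = 0.914, adjusted over 3 ratios 0.914), and ZT8 replicate 2 held the lowest ratio. Without that library the difference was -0.097. A ratio within a sample can still carry that sample's trend with transcript length and GC content. With this trend removed the difference was 0.17 (exact permutation test, adjusted p = 0.229).

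**Figure D2:**
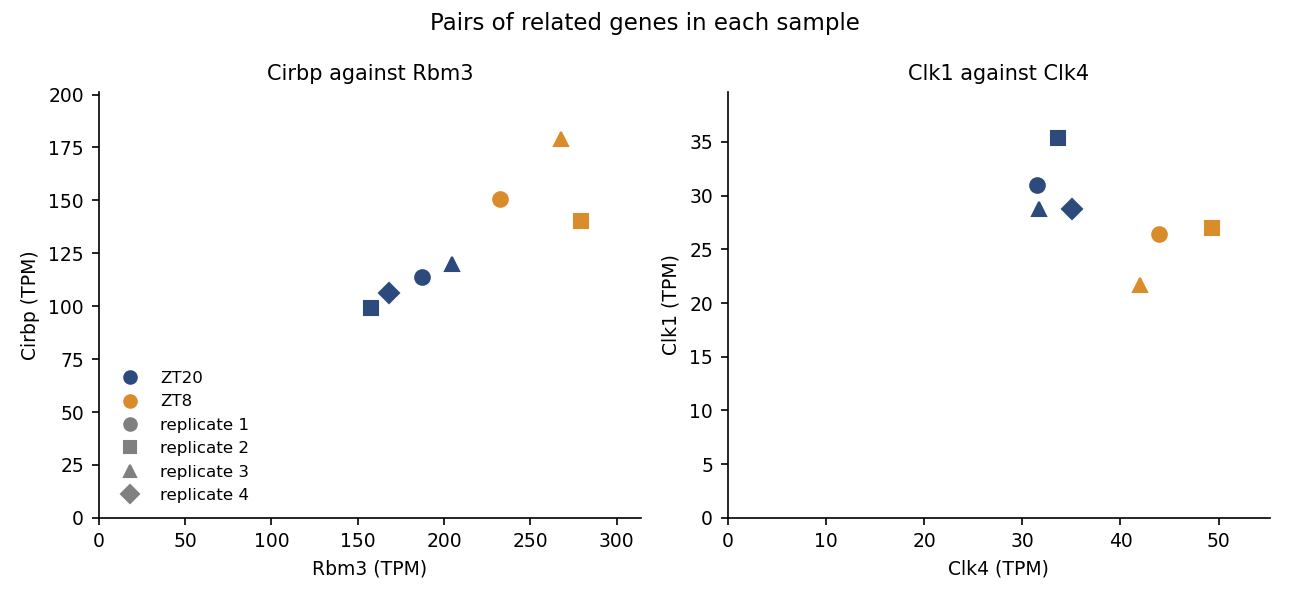
Left, Cirbp against Rbm3, and right, Clk1 against Clk4, both in TPM from 0, with 1 point per sample (blue ZT20, orange ZT8, symbols for replicates). Cirbp and Rbm3 are low together in the ZT20 samples, whereas the ZT20 samples have less Clk4 and more Clk1 than the ZT8 samples.

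Among the kinases, Clk4 was lower at ZT20. It was at 31.5, 33.6, 31.7 and 35.04 TPM in the ZT20 samples and at 43.9, 49.3 and 42.0 TPM in the ZT8 samples. The samples of each group lay close together, and the groups did not overlap. The ZT20 mean of 33.0 ± 1.69 TPM (SD, n = 4) stood against 45.1 ± 3.77 TPM (SD, n = 3), 1.37-fold lower at ZT20, with a log2 difference of -0.44 (95% interval -0.72 to -0.15, limma adjusted p = 0.0468). Leaving out any 1 of the 7 libraries raised the adjusted p-value above the threshold (0.0524 to 0.134), with differences of -0.49 to -0.37, and without ZT20 replicates 3 and 4 the difference was -0.455 with an adjusted p-value of 0.290.

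Some markers of other cell types were called lower at ZT20, as Clk4 was. They were 2 of 5 for satellite glia and 1 of 5 each for Schwann cells, macrophages and plasma cells, beside 3.61% of all genes, while 1 of 7 neuronal markers was called higher and the fibroblast, endothelial and red blood cell markers gave no limma call. The macrophage sums and the Schwann cell sums overlapped between the groups. The summed plasma cell markers, like those of satellite glia, did not overlap, at 267 to 486 TPM at ZT20 and 496 to 935 TPM at ZT8. Of the called satellite glia markers, Fabp7, a fatty acid-binding protein that marks these cells, was the gene among 8100 whose pattern was most like that of Clk4. Over 7 samples such likeness is common, and 1.59% of those genes had a Pearson's r above 0.95 with Clk4. Whether cell content bears on the Clk4 difference was not tested. When a score of neuronal against other markers entered the model the limma differences were -0.31 for Clk4 (adjusted p = 0.332), -0.64 for Rbm3 (adjusted p = 0.0965) and -0.72 for Cirbp (adjusted p = 0.0436). The other markers in the score were those of satellite glia, Schwann cells, macrophages, fibroblasts and endothelial cells, averaged together. Plasma cell markers were not in it. The score overlapped between the groups, at 5.789 to 6.13 at ZT20 and 5.265 to 5.932 at ZT8, unlike the satellite glia sums. Clk4 overlaps BC049762 on the opposite strand in GENCODE M21, which was at 2.46 to 3.70 TPM in 6 samples and at 11.6 TPM in ZT8 replicate 2, and reads of the overlap may be assigned to either. Clk4 also overlaps Gm25082 on the same strand.

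Clk1, the closest relative of Clk4 among the kinases, lay on the other side. It was at 31.0, 35.4, 28.8 and 28.7 TPM in the ZT20 samples and at 26.4, 26.9 and 21.7 TPM in the ZT8 samples. The groups did not overlap, which with ZT20 higher held for 24.5% of all tested genes. The ZT20 mean of 31.0 ± 3.11 TPM (SD, n = 4) stood against 25.0 ± 2.91 TPM (SD, n = 3), giving a log2 difference of 0.30 (95% interval -0.04 to 0.64, limma adjusted p = 0.189) that did not pass. The difference was near the median of all genes, and 54.7% of them had a lower one.

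The balance between Clk1 and Clk4 was read within each sample. Clk1 stood at 0.984, 1.05, 0.909 and 0.820 times the TPM of Clk4 at ZT20, hence at about equal levels, and at 0.602, 0.547 and 0.516 times at ZT8. Every ZT20 ratio was above every ZT8 ratio. The log2 ratio was -0.091 ± 0.150 (SD, n = 4) in the ZT20 samples, against -0.83 ± 0.108 (SD, n = 3) in the ZT8 samples, and so differed by 0.74 or 1.67-fold. By a two-sided exact permutation test p was 0.0286, the smallest that 35 splits allow, and 0.0857 after adjustment over 3 ratios. With 1 library left out the difference ran from 0.68 to 0.80, and without ZT20 replicates 3 and 4 it was 0.85. With each sample's trend with transcript length and GC content removed it was 0.54.

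Clk3 was the most abundant of the kinases. It was at 42.4, 58.1, 57.7 and 61.9 TPM in the ZT20 samples and at 54.9, 42.4 and 63.2 TPM in the ZT8 samples, so the groups lay over each other. The log2 difference was 0.044 (95% interval -0.38 to 0.47, limma adjusted p = 0.883), and its sign changed under median-ratio scaling and with several other settings. Clk3 overlaps Edc3 on the opposite strand, which was at 11.7 to 20 TPM.

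Clk2 was the least abundant of the 7 genes. It was at 2.45, 2.87, 2.36 and 1.84 TPM in the ZT20 samples and at 0.823, 0.0953 and 1.87 TPM in the ZT8 samples. The value of ZT8 replicate 3 lay just above that of ZT20 replicate 4, and ZT8 replicate 2 was close to 0. The log2 difference was 0.91 (95% interval 0.11 to 1.70, limma adjusted p = 0.105). It was 0.55 without ZT8 replicate 2, and without ZT8 replicate 3 it was 1.25 and passed (adjusted p = 0.0491). At this low level it moved with the setting, to 1.79 with a pseudocount of 0.1, 0.43 with quantile normalization and 0.32 with the marker score in the model, none of them called. The log2 ratio of Clk2 to Clk3 was -4.05 ± 0.343 (SD, n = 4) against -4.91 ± 0.414 (SD, n = 3) at ZT8, a difference of 0.86 (two-sided exact permutation test, p = 0.0571, adjusted over 3 ratios 0.0857). With a pseudocount of 0.1 in place of 1 it was 1.74 and passed (exact permutation test, adjusted p = 0.0429).

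Summed over the 4 kinases the ZT20 level of 121 ± 10.1 TPM (SD, n = 4) stood against 124 ± 5.19 TPM (SD, n = 3), with overlapping ranges of 107 to 130.0 TPM and 119 to 129 TPM. Within that sum Clk4 made up 27.2% ± 1.53 (SD, n = 4) in the ZT20 samples against 36.3% ± 4.64 (SD, n = 3) in the others, and Clk1 made up 25.6% ± 2.94 (SD, n = 4) and 20.2% ± 3.04 (SD, n = 3). Clk3 held 45.2% ± 4.12 (SD, n = 4) and 42.8% ± 6.73 (SD, n = 3), and Clk2 held 1.97% ± 0.381 (SD, n = 4) and 0.731% ± 0.693 (SD, n = 3). GENCODE M21 classes 7 of the 13 transcripts of Clk1, 7 of 14 of Clk4, 4 of 11 of Clk2 and 4 of 9 of Clk3 as retained introns. A value per gene does not separate these from the coding transcripts.

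Hsf1, the heat shock factor, was at 37.8, 23.1, 34.1 and 33.4 TPM in the ZT20 samples and at 25.5, 10.7 and 20.3 TPM in the ZT8 samples. Only ZT20 replicate 2 fell within the range of the ZT8 samples, and ZT8 replicate 2 was the lowest of all. The ZT20 mean of 32.1 ± 6.29 TPM (SD, n = 4) stood against 18.8 ± 7.53 TPM (SD, n = 3), giving a log2 difference of 0.80 (95% interval 0.13 to 1.46) that did not pass (limma adjusted p = 0.0920). Without ZT8 replicate 2 the difference was 0.45, and without ZT8 replicate 1 it was 1.05, neither of them called, and with the marker score in the model it was 0.42 (adjusted p = 0.578). ZT8 replicate 2 thus held the lowest values of both Clk2 and Hsf1, and it was the library with the fewest genes above 0 TPM. What part that library's depth had in these values was not tested.

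**Figure D3:**
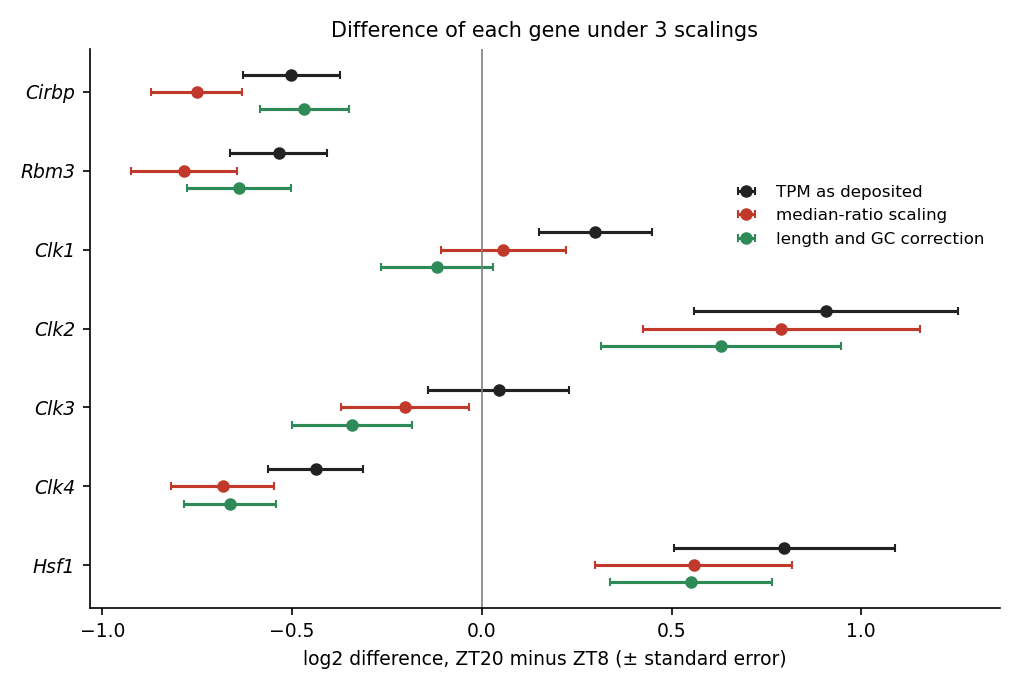
Log2 difference, ZT20 minus ZT8, with its standard error, for each gene from TPM as deposited (black), after median-ratio scaling between samples (red) and after removal of each sample's trend with transcript length and GC content (green). The differences of Cirbp, Rbm3 and Clk4 are negative and those of Clk2 and Hsf1 positive under all 3, whereas those of Clk1 and Clk3 lie on either side of 0.

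Because the median of all genes was shifted, the direction of each gene was checked under other scalings. Median-ratio scaling, which brought the median of all genes to 0.019, gave differences of -0.75 for Cirbp, -0.79 for Rbm3 and -0.68 for Clk4, with limma adjusted p-values of 0.0117, 0.0137 and 0.0185. In that fit 8.47% of all genes were called lower and 7.36% higher at ZT20. Removing the trend with transcript length and GC content gave -0.47, -0.64 and -0.66 for the same genes, with adjusted p-values of 0.0445, 0.0293 and 0.0202, beside 5.13% of all genes called lower and 3.66% higher. Genes of like length were compared as well. In its length group 18.2% of genes had a lower difference than Cirbp, beside 8.72% of all tested genes. For Rbm3 it was 6.17% beside 7.83%, and for Clk4 7.8% beside 10.8%. For Cirbp (longest transcript 1321 nt) the median difference of its length group was -0.13, for Rbm3 (2792 nt) 0.17 and for Clk4 (3543 nt) 0.24, so the latter genes lay further below their group than Cirbp did. For Clk1 (4865 nt) that median was 0.47, above its own difference of 0.30, and with length and GC content corrected the Clk1 difference was -0.12 (adjusted p = 0.636).

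By level, the 7 genes formed the same upper order at both times, with Rbm3 highest, then Cirbp, then Clk3. Rbm3 exceeded Cirbp 1.63-fold at ZT20 and 1.66-fold at ZT8 without overlap, and Cirbp exceeded Clk3 2.0-fold and 2.93-fold, again without overlap. At ZT20, Clk4, Hsf1 and Clk1 followed at 33.0, 32.1 and 31.0 TPM and did not differ beyond their spread. At ZT8, Clk4 overlapped with Clk3 above it, stood 1.80-fold over Clk1 without overlap, and Clk1 and Hsf1 overlapped. Clk2 came last at both times, with no overlap with the gene above it.

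Genes that act with these 7 were read from 6 lists. Where a count of called genes is given for a list, it stands beside the 16.4% of all tested genes that were called. SR proteins, the substrates of the CLK kinases, included 1 called gene of 11 (9.09%), higher at ZT20, and the median difference of the list was 0.18 against 0.23 for all genes, and -0.015 against -0.0034 with length and GC content corrected. That gene was Srsf2, at 68.1 and 27.3 TPM on average (log2 difference 1.26, limma adjusted p = 0.0444, ranges overlapping), which was named after its value had been seen. The list held 0 calls by limma when any 1 ZT20 library or ZT8 replicate 1 was left out, and 0 with the length and GC correction, quantile normalization or the marker score in the model, beside 3 of its genes at an unadjusted p under 0.05 with all libraries. Srsf5 and Srsf7, the most abundant SR proteins, had differences of 0.20 (adjusted p = 0.269) and -0.33 (adjusted p = 0.0617). Srsf7 was at 110.1 to 121 TPM at ZT20 and 138 to 154 TPM at ZT8, without overlap, and the Srsf5 difference was negative when scaled by median ratios or corrected for length and GC content.

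The other kinases of the CLK neighbourhood (SRPK, DYRK and HIPK families and the PRP4 kinase) had differences above 0 in all 12 tested members from TPM as deposited, beside 66.4% of all tested genes, with a median of 0.64, and 4 were called, all higher at ZT20. Hipk1 was at 9.28 to 11.03 TPM at ZT20 and 3.22 to 3.35 TPM at ZT8, a log2 difference of 1.42 (SE 0.18, adjusted p = 0.00361). Hipk3 was at 9.26 to 12.3 and 3.30 to 3.91 TPM, a difference of 1.39 (adjusted p = 0.00466). Both are kinases of homeodomain-interacting proteins. Srpk2, an SR protein kinase of the cytoplasm and nucleus that is prominent in neurons, was at 63.5 to 72.8 and 22.1 to 43.5 TPM, a difference of 0.97 (adjusted p = 0.0257), whereas that of its relative Srpk1, at 0.19, did not pass (adjusted p = 0.336) and was negative when scaled by median ratios or corrected for length and GC content. Srpk2 was not called without ZT20 replicate 1, 3 or 4 (adjusted p 0.0675 to 0.0801). Prpf4b, the PRP4 kinase, was the other gene called, at 0.95 (adjusted p = 0.0189), and like Cryab among the heat shock genes it was named after its value had been seen. These are long transcripts (6491 to 7939 nt for the 4 called genes), and after the length and GC correction 2 of the list were called and its median was 0.31. That correction gave 0.80 for Hipk1 (adjusted p = 0.0307), 0.79 for Hipk3 (adjusted p = 0.0305) and 0.43 for Srpk2 (adjusted p = 0.286).

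Heat shock genes that HSF1 drives did not move as a block: of 17 tested, 2 were called higher and 2 lower, and their median was 0.15, or -0.12 after the length and GC correction. Hspa1a, the inducible HSP70, was at 29.2 to 45.9 TPM at ZT20 and 63.4 to 81.2 TPM at ZT8, a log2 difference of -0.97 (adjusted p = 0.0108) that was not called with the marker score in the model (-1.09, adjusted p = 0.0569). It is nearly identical in sequence to Hspa1b, which was below the filter, so the split of reads between them is uncertain. Cryab, a small heat shock protein, was the other gene called lower, at -0.45 (adjusted p = 0.0456). Without ZT20 replicate 3 or 4 Hspa1a was the 1 gene of the list still called, and with the marker score in the model 0 were. Hsph1, an HSP110 chaperone, was at 155 to 178 TPM at ZT20 and 92.2 to 124 TPM at ZT8, a difference of 0.61 (adjusted p = 0.0196) that was not called without ZT20 replicate 3 or 4 (adjusted p = 0.0654 and 0.0661). The Hsph1 difference was 0.36 (adjusted p = 0.0721) with median-ratio scaling and 0.16 (adjusted p = 0.361) with length and GC content corrected. The co-chaperone Bag3 was at 196 to 277 and 90.4 to 175 TPM, a difference of 0.80 (adjusted p = 0.0486) that did not pass when any single library other than ZT8 replicates 1 and 2 was left out (adjusted p up to 0.133), and was 0.53 (adjusted p = 0.370) with the marker score in the model. It was 0.55 (adjusted p = 0.0930) with median-ratio scaling and 0.50 without ZT8 replicate 2. The most abundant of the list, Hspa8 and Hsp90ab1, were at 4692 and 2033 TPM at ZT20 and 4879 and 1884 TPM at ZT8 on average, with overlapping ranges and adjusted p-values of 0.812 and 0.582, and both changed sign with single libraries or settings.

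Of the other heat shock factors and their binding protein 3 were tested and 0 called by limma, while 1 had an unadjusted p-value under 0.05. That was Hsbp1, the small protein that binds the trimer of HSF1, at 305 to 396 TPM at ZT20 and 433 to 739 TPM at ZT8, a difference of -0.66 (adjusted p = 0.0552) without overlap. ZT8 replicate 2 held the highest value, and without it the difference was -0.41. Hsf4 was at 52.9 and 49.2 TPM on average, with a difference of 0.094 (adjusted p = 0.666) whose sign changed under median-ratio scaling. Among 7 tested cold shock domain proteins and glycine-rich relatives the median difference was -0.039, or -0.12 with length and GC content corrected. Carhsp1 had a difference of -0.039 (adjusted p = 0.850) whose sign changed with several settings.

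Reported targets and receptors of CIRBP and RBM3 gave 1 call among 8 tested, with a median of 0.40, or 0.12 with length and GC content corrected. Trem1, a myeloid receptor for CIRBP released from cells, was at 6.23 to 15.5 TPM at ZT20 and 0.721 to 5.40 TPM at ZT8, a difference of 1.61 (adjusted p = 0.0445). It was not called when any single library other than ZT8 replicate 2 was left out (adjusted p up to 0.111), nor under median-ratio scaling (adjusted p = 0.0782). The sum of 5 macrophage markers overlapped between the groups, at 250 to 579 TPM and 242 to 554 TPM. Rtn3, a reticulon whose translation RBM3 raises, had a difference of 0.44 (adjusted p = 0.130) that was 0.22 without ZT8 replicate 2, 0.19 with median-ratio scaling and negative after the length and GC correction. Txn1, thioredoxin, had 0.35 (adjusted p = 0.194), which was 0.20 without ZT8 replicate 3 and 0.10 with median-ratio scaling.

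**Figure D4:**
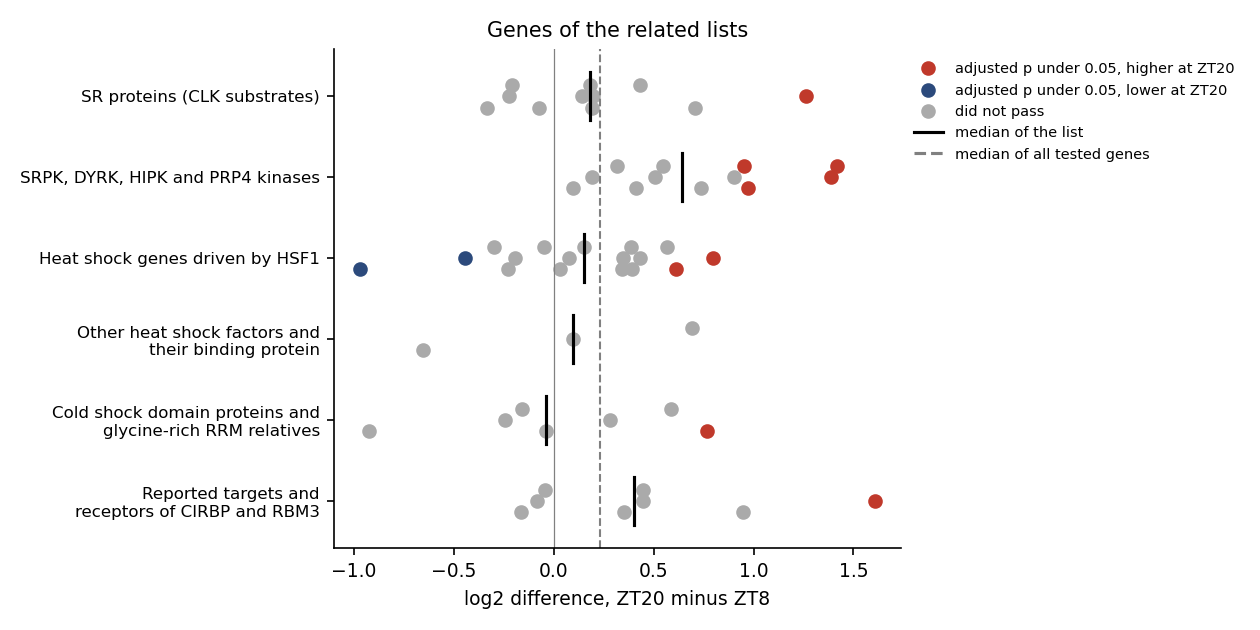
Log2 difference, ZT20 minus ZT8, of every tested gene of the 6 lists, 1 point per gene, with called genes in red (higher at ZT20) and blue (lower), the median of each list as a black bar and the median of all tested genes as a dashed line. In TPM as deposited all kinases of the second list lie above 0 (Srpk1 is below 0 with median-ratio scaling), while the heat shock genes spread to both sides.

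The genes most like each of the 7 were sought by Pearson's r of log2(TPM + 1) over the 7 samples, among 8100 other genes whose mean reached 10 TPM. With so few samples high values are common: 3.93% of these genes had an r above 0.95 with Hsf1, 1.59% with Clk4, 0.296% with Cirbp and 0.136% with Rbm3. Nearest to Cirbp were Sumo2, a small ubiquitin-like modifier (r = 0.989), and Sdhaf2, an assembly factor of succinate dehydrogenase (r = 0.988). Nearest to Rbm3 were Chac2, an enzyme that degrades glutathione (r = 0.994), and Gin1 (r = 0.994). Nearest to Clk4 were Fabp7 (r = 0.995), at 493 ± 19.3 TPM (SD, n = 4) against 649 ± 52.3 TPM (SD, n = 3) at ZT8, and Kbtbd3 (r = 0.994). Of these 6 genes Fabp7 and Kbtbd3 were called lower at ZT20. Fabp7 was not called when any 1 of the ZT20 libraries or ZT8 replicate 1 was left out (adjusted p 0.0536 to 0.109), nor Kbtbd3 without ZT20 replicate 1, 3 or 4 (adjusted p 0.0579 to 0.0811). The limma call of Fabp7 was also lost with the length and GC correction (adjusted p = 0.11) and quantile normalization (adjusted p = 0.0769). With the marker score in the model it was lost as well (adjusted p = 0.248).

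Nearest to Clk1 were Zfp131, a zinc finger protein (r = 0.995), and Tmem263 (r = 0.978), of which Tmem263 was called higher at ZT20 (difference 1.14, adjusted p = 0.0298) but not when any single library other than ZT8 replicate 2 was left out (adjusted p 0.0529 to 0.0761). Nearest to Clk2 were Clmp, a cell adhesion protein (r = 0.990), and Cct2, a chaperonin subunit (r = 0.990). Nearest to Clk3 were Fam172a (r = 0.983) and Smarcc1, a chromatin remodelling subunit (r = 0.976), and nearest to Hsf1 were Arhgdia (r = 0.994), and Med9, a Mediator subunit (r = 0.993). Apart from Tmem263, 0 of these 8 genes were called by limma.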

How the data were processed

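The authors deposited a table of TPM, 1 column per sample. Per the submitters' processing notes, the tools included FastQC 0.11.9, Trim Galore 0.6.6 and Salmon 1.6.0 with the build GRCm39, and their options and the annotation release are not given in the sources used here. TPM sums to one fixed total per library, so depth and counting error are unknown, and intervals cover the spread between samples only. All 7 columns were mapped by name (0 left unused). Groups follow the sample titles. Values were analysed as log2(TPM + 1), which understates differences of low genes, for genes whose mean reached 1 TPM, with limma 3.58.1 in R 4.3.3 (intensity trend, two-sided, Benjamini-Hochberg over 14800 genes), checked on simulated data. The 3 log2 ratios of TPM + 1 were compared by exact permutation over 35 splits. Longest-transcript length, GC content (14745 tested genes) and overlaps came from GENCODE M21, matched by Ensembl identifier. That annotation is on GRCm38, so coordinates are given only for the RefSeq promoter windows, on their own build (GRCm38.p6).

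Named genes were the 7 genes, the 2 most abundant of each list, up to 3 of each list with the largest called difference without overlap, and the 2 genes most like each of the 7. 1 gene that this rule names is not reported here. The genes, lists, tests and alternatives were chosen with earlier results of these data known. Alternatives were other pseudocounts, filters, scalings, weights and covariates, a replicate block, and fits without single or doubtful libraries. Figures were drawn with matplotlib 3.10.9.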

Additional observations from a re-analysis of the deposited data

Results flagged for a closer look

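Of 42 results examined in the 4 ZT20 samples, 5 had 1 sample far from the other 3, meaning that its gap to the nearest took a larger share of the whole range than Dixon's test allows at the 95% level. Chance gives about 2.1 in 42. None of the 7 genes or their 3 ratios was among them. For Hipk1 it was ZT20 replicate 3 (9.28 TPM, the rest 10.8 to 11.03), with a share of 0.881. For Hspa8 it was ZT20 replicate 4 (4961 TPM, the rest 4588 to 4626), with a share of 0.899. For Hsp90ab1 it was ZT20 replicate 1 (1936 TPM, the rest 2056 to 2074), with a share of 0.865. For Tmem263 the far sample was ZT20 replicate 2, with a share of 0.934, and for Fam172a it was ZT20 replicate 1, with a share of 0.995.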

How the results depend on the processing

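Cirbp, Rbm3, Clk4, Clk2 and Hsf1 kept their direction in every alternative run, and the calls of the first 3 sat close to the threshold. The cause of each change listed here was not tested. With no filter on low values the adjusted p-values were 0.0636 (Cirbp, -0.50), 0.0599 (Rbm3, -0.535) and 0.0585 (Clk4, -0.44), and without the intensity trend 0.0660, 0.0587 and 0.0697 at the same differences. The marker covariate gave -0.31 for Clk4 and -0.64 for Rbm3, both not called. Without ZT20 replicates 3 and 4 the differences were -0.55, -0.59 and -0.455 (Cirbp, Rbm3, Clk4), and without ZT20 replicates 2, 3 and 4 they were -0.45, -0.47 and -0.50, none called. That last fit left 1 ZT20 library, assumed to vary like the ZT8 group, and called 0 genes, with 1133 at an unadjusted p under 0.05. Hsf1 (0.80) passed at an adjusted p threshold of 0.10.

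Clk1 turned to -0.12 with the length and GC correction, and to -0.062 with that correction without ZT8 replicate 2, a setting added after the data had been seen. Clk3 was -0.20 with median-ratio scaling, -0.079 with quantile normalization, -0.34 with the length and GC correction, -0.058 with the marker covariate, -0.029 with array weights, -0.31 and -0.39 with median-ratio scaling or the length correction without ZT8 replicate 2 (added after the data had been seen), -0.086 without ZT20 replicates 3 and 4, and -0.31 without ZT20 replicates 2, 3 and 4. With a pseudocount of 0.1 and with the length and GC correction the Clk2 to Clk3 ratio (1.74 and 0.97) reached the smallest exact p that the samples allow. The Clk1 to Clk4 ratio (0.76 and 0.54) was at that p with and without these changes, and its adjusted p passed through the change of the other ratio alone.

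Same-numbered samples did not deviate together in every pair (r of -0.0141, 0.153 and 0.083). These values cannot tell whether same-numbered samples shared a handling step, so fits with a replicate block are given as well. With the replicate block Cirbp was at -0.49, Rbm3 at -0.51, Clk4 at -0.47 and Clk3 at -0.016, none called, and 1174 genes were called (891 higher, 283 lower). The block with the length and GC correction gave -0.46, -0.60, -0.67 and -0.375 for the same genes, -0.059 for Clk1, and 611 calls (263 and 348). With the block, the heat shock list held 1 call, the other heat shock factors 1 and the targets 0. With the correction added the cold shock, heat shock and kinase lists held 0, 1 and 0. Among the other genes named, the block ended the calls of Hsph1, Bag3, Fabp7, Kbtbd3 and Trem1 (adjusted p = 0.0705, 0.0503, 0.0695, 0.0666 and 0.0928), and Hsbp1 passed (0.0466). With the correction added those 5 were not called either, nor were Hipk1, Hipk3 and Srpk2 (0.132, 0.130 and 0.245). Blocked differences turned sign for Smarcc1 (-0.057, and -0.57 with the correction), and with the correction for Fam172a (-0.26), Hsf4 (-0.069), Rtn3 (-0.049) and Srpk1 (-0.27).

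Over all genes 2433 were called. The count was 1178 (978 higher, 200 lower) with no filter, 1296 (539 higher) with the length and GC correction, 415 (394 and 21) with the marker covariate, 3899 (2982 and 917) with array weights and 4079 (3098 and 981) at the 0.10 threshold. The split was 1089 higher and 1254 lower with median-ratio scaling and 1023 and 814 with quantile normalization, and 332 were lower without the intensity trend. Of the lists, the targets held 0 calls with the pseudocount of 0.1, no filter, median-ratio scaling, quantile normalization, the marker covariate or no trend, and 2 with array weights or at 0.10. SR proteins held 0 with no filter, quantile normalization, the length and GC correction, the marker covariate or no trend, and 3 with array weights or at 0.10. Heat shock genes held 2 with no filter, the correction or no trend, 0 with the marker covariate, and 7 with array weights or at 0.10. Other heat shock factors held 1 with a filter of 5 TPM, median-ratio scaling, array weights or at 0.10. Cold shock proteins held 0 with median-ratio scaling or the correction and 2 with array weights, and the kinases held 2 with the correction or the marker covariate. All lists held 0 without ZT20 replicates 3 and 4, or 2, 3 and 4.

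Other signs turned with median-ratio scaling for Fam172a (-0.16), Hsf4 (-0.15), Hsp90ab1 (-0.10), Smarcc1 (-0.14), Srpk1 (-0.056) and Srsf5 (-0.052). They turned with quantile normalization for Carhsp1 (0.029), Fam172a (-0.14), Hsf4 (-0.024) and Smarcc1 (-0.028). The length and GC correction turned Fam172a (-0.22), Rtn3 (-0.030), Smarcc1 (-0.43), Srpk1 (-0.27) and Srsf5 (-0.015). The marker covariate turned Carhsp1 (0.10), Fam172a (-0.097), Hsp90ab1 (-0.16) and Smarcc1 (-0.089), and array weights turned Carhsp1 (0.031) and Hsp90ab1 (-0.0027). Without ZT20 replicates 3 and 4 the signs of Fam172a (-0.12), Hsf4 (-0.046) and Smarcc1 (-0.25) turned, and without 2, 3 and 4 those of Fam172a (-0.53) and Smarcc1 (-0.61).

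With single libraries left out, the differences ran from -0.58 to -0.40 for Cirbp, -0.61 to -0.48 for Rbm3, -0.49 to -0.37 for Clk4, -0.11 to 0.17 for Clk3, 0.20 to 0.35 for Clk1, 0.55 to 1.25 for Clk2 and 0.45 to 1.05 for Hsf1. The ratios ran from -0.097 to 0.11 (Cirbp to Rbm3), 0.68 to 0.80 (Clk1 to Clk4) and 0.66 to 1.08 (Clk2 to Clk3), where the exact test could not pass. Calls ran from 624 to 3055 (543 to 2374 higher, 81 to 681 lower), and in the lists from 0 to 1 (SR proteins), 2 to 7 (kinases), 1 to 5 (heat shock), 1 to 3 (cold shock) and 0 to 2 (targets). Signs turned within -0.12 to 0.053 for Carhsp1, -0.14 to 0.30 for Fam172a, -0.076 to 0.35 for Hsp90ab1, -0.16 to 0.056 for Hspa8 and -0.16 to 0.35 for Smarcc1. Depth is unknown from TPM, so the counting error of low values such as those of Clk2 could not be given.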
